A study of Mus musculus with 6 samples.

Results

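The Speg-Obsl1-Slc4a3 neighbourhood is a run of 10 genes on mouse chromosome 1: Des, Speg, Gmppa, Asic4, Chpf, Tmem198, Obsl1, Inha, Stk11ip and Slc4a3. They are 10 of the 19938 genes measured, and in the RefSeq gene order of GRCm38.p6 no other measured gene lies between them, although 3 RefSeq genes of that stretch had no single-symbol probe set. Obsl1 and Slc4a3 were chosen by their intensities in these arrays, and Speg lends the set its name, so these 3 genes are described without a test. The other 7 are included for their position, and the question was whether they move with Obsl1 and Slc4a3. All members were chosen with earlier results of these data known. The series profiled 3 chromosome transfer embryonic stem cell lines, ♂M-1, ♂M-3 and ZM-1, with 2 biological repeats of each and 6 arrays in all. All were cultured on gelatin-coated plates in DMEM containing LIF together with PD0325901 against MEK and CHIR99021 against GSK3β, so the 3 lines share this medium. Each name stands for 1 line, and strain, genotype and passage were not given in the sources used here. The series title concerns how far each parental pronucleus of the zygote can reprogram, and the stated design compared the lines' expression profiles.

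The neighbourhood joins genes of unlike function. Des encodes desmin, the intermediate filament protein of muscle, Speg a kinase of striated muscle related to myosin light chain kinase, and Obsl1 an obscurin-like adaptor that forms a ubiquitin ligase assembly with Cul7 and Ccdc8. Slc4a3 encodes an exchanger of chloride for bicarbonate, best known in heart and brain, and Asic4 a member of the acid-sensing channel family. Inha encodes the alpha subunit of inhibin, which antagonises activin. Chpf cooperates with chondroitin synthases in building chondroitin chains. Gmppa is a regulatory partner of the enzyme that makes GDP-mannose, Stk11ip binds the kinase LKB1, and Tmem198 encodes a membrane protein. Neighbouring genes can share promoters or chromatin, or can be expressed independently of each other.

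The labelled cell type was checked against its markers. All 8 embryonic stem cell markers examined lay above the array median in both arrays of ♂M-1 and of ♂M-3, and 7 of 8 did so in ZM-1, where Dppa3 lay below it in 1 array. Of the 8, 4 were higher in ♂M-3 than in ZM-1 (limma, adjusted p under 0.05), or 2 without any single array of either line. Between ♂M-1 and ♂M-3, 2 were lower in ♂M-1, or 1 without ♂M-1 replicate 2. Over all genes, 8.66% were called as higher in ♂M-3 than in ZM-1 and 3.32% as lower in ♂M-1 than in ♂M-3. The arrays had medians between 67.2 and 71.3 and lower quartiles between 23.8 and 25.1. Values are linear intensities without a stated background level, and the number of arrays limits their precision. Intensities of different probe sets are not compared with each other. Nothing in the labels says that repeats came from separate cultures, so p-values measure only the spread between these repeats.

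Obsl1 was highest in ♂M-1, intermediate in ZM-1 and lowest in ♂M-3. The ♂M-1 arrays read 358 and 452, those of ZM-1 read 280 and 255, and those of ♂M-3 read 126 and 123. No array of 1 line overlapped those of another, although the ♂M-1 repeats lay farther apart than the other pairs. The line means were 405 ± 66.5 (SD, n = 2) in ♂M-1, 267 ± 17.8 in ZM-1 and 125 ± 2.33 in ♂M-3. On the log2(intensity + 1) scale ♂M-1 exceeded ♂M-3 by 1.68, a 3.21-fold difference, and ZM-1 by 0.59, a 1.51-fold difference. ♂M-3 lay below ZM-1 by 2.13-fold (log2 difference −1.09).

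The stretch before the start of Obsl1 is shown because Obsl1 differs most between ♂M-1 and ♂M-3 among the 10 genes. It was taken from RefSeq, GRCm38.p6, minus strand, chr1:75506453-75506702, 5′ to 3′, and ends at the base before the start. GC boxes (GGGCGG on either strand) would be in capitals in this and the next sequences. This window holds none of them.
Obsl1: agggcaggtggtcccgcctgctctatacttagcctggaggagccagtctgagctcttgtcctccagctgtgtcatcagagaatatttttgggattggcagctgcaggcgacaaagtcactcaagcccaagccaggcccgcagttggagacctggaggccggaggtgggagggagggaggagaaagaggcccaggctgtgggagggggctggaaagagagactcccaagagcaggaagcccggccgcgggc

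The Obsl1 window was 62.0% G and C and held 7 CpG, against medians of 52.4% and 6 over the 32851 promoter windows of 250 bases in the table. It held 4 matches to the E-box CANNTG, a motif of basic helix-loop-helix factors that 66.2% of the windows hold. It also held 1 CCAAT box (CCAAT, either strand), which 33.8% of windows hold, and no TATAAA, which 12.4% hold.

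Slc4a3 took the same order of lines. Its intensity was 344 and 313 in ♂M-1, 209 and 190 in ZM-1, and 114 and 112 in ♂M-3. The 3 lines did not overlap, and the repeats of ♂M-3 were nearly equal. The line means were 329 ± 22.4 (SD, n = 2), 199 ± 13.3 and 113 ± 1.75 in ♂M-1, ZM-1 and ♂M-3. ♂M-1 exceeded ♂M-3 by 2.89-fold (log2 difference 1.53) and ZM-1 by 1.65-fold (0.72), and ♂M-3 lay below ZM-1 by 1.75-fold (−0.81).

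Slc4a3 was the only one of the 10 genes with more than 1 single-symbol probe set, and the probe set with the highest mean was used. The other probe set lay near the lower quartile of the arrays, at 23.6 and 27.3 in ♂M-1, 21.4 and 19.3 in ♂M-3, and 23.8 and 20.7 in ZM-1. ♂M-1 and ♂M-3 did not overlap on it either, but the log2 difference between them was 0.31. When both probe sets were averaged, the differences fell to 0.92 for ♂M-1 against ♂M-3, 0.45 for ♂M-1 against ZM-1 and −0.47 for ♂M-3 against ZM-1.

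The window before the start of Slc4a3 (RefSeq, GRCm38.p6, plus strand, chr1:75546212-75546461, 5′ to 3′) is shown for comparison with that of Obsl1, whose order of lines it shares. It was 70.0% G and C with 20 CpG, and held 2 GC boxes, in capitals, which 32.7% of all windows carry at least once. It also held 1 E-box and no CCAAT box.
Slc4a3: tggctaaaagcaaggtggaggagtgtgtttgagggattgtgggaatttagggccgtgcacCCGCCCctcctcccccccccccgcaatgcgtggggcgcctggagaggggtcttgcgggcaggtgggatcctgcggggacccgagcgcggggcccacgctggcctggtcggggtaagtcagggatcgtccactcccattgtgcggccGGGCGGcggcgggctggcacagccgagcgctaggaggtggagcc

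**Figure D1:**
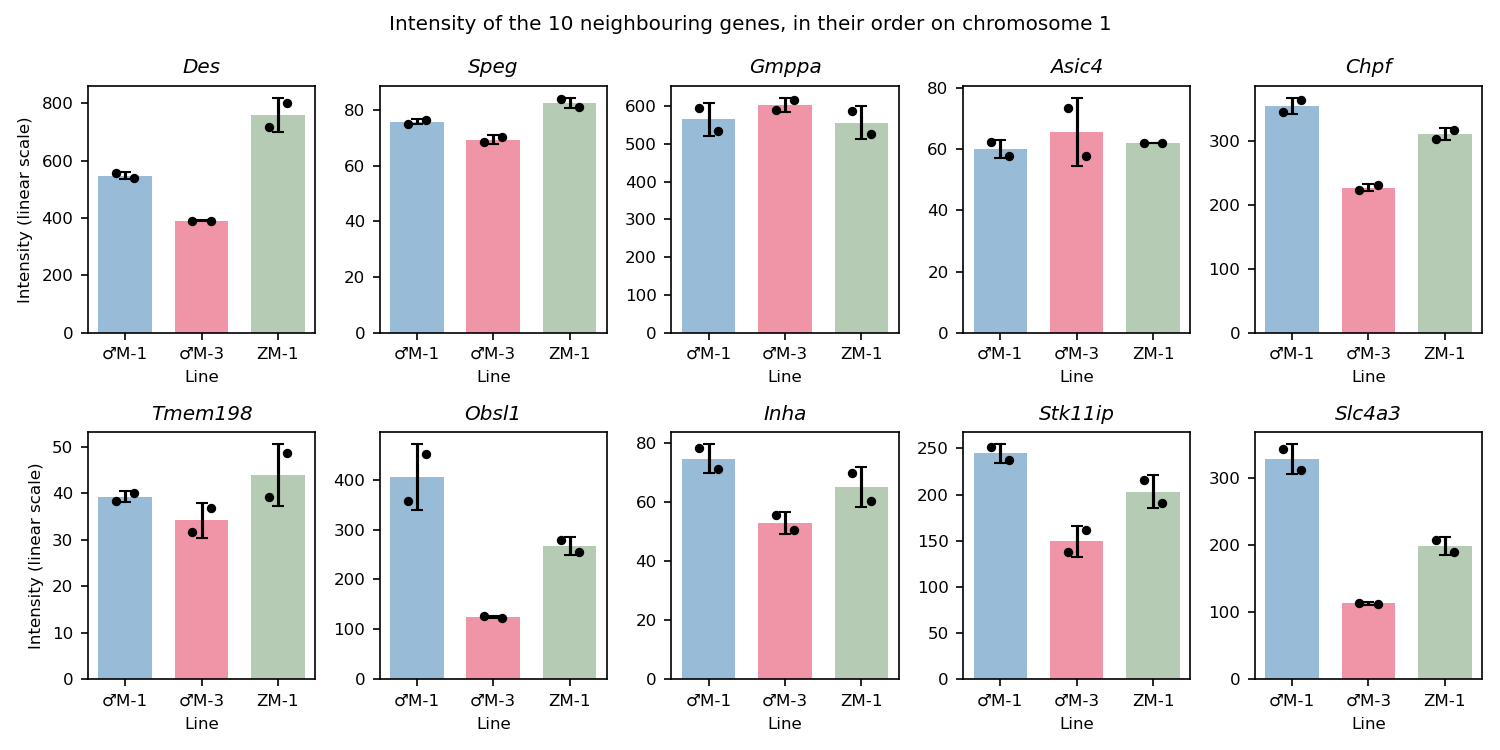
Intensity (linear scale, axis from 0) of each of the 10 genes by line. Bars are the mean of 2 arrays, error bars the SD and points the arrays; Obsl1, Slc4a3, Chpf, Inha and Stk11ip are highest in ♂M-1 and lowest in ♂M-3, while Gmppa and Asic4 overlap between ♂M-1 and ♂M-3.

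Between ♂M-1 and ♂M-3, 4 of the 7 positional neighbours were higher in ♂M-1 and 0 were lower (limma, adjusted p under 0.05). They were Des, Chpf, Inha and Stk11ip, and Tmem198, Gmppa and Asic4 were not called. Over all genes, 6.54% were called in this comparison, 3.22% as higher in ♂M-1 and 3.32% as lower. The median log2 difference of the 7 genes was 0.49, against −0.02 over all genes. Because the members were chosen with earlier results known, the count and the median are not independent of that choice. The count was 2 without any single array of ♂M-1 or ♂M-3, whichever was left out. The calls of Des and Inha were the ones lost in those fits.

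Chpf was lower in ♂M-3 than in both other lines. Its intensity was 345 and 363 in ♂M-1, 303 and 316 in ZM-1, and 223 and 230.0 in ♂M-3. The lines did not overlap, and their order was that of Obsl1 and Slc4a3. How many of all genes take this order, or show no overlap, was not counted. The order and the lack of overlap are therefore only descriptive, here and for the genes below. ♂M-1 exceeded ♂M-3 by 1.56-fold (log2 difference 0.64 ± 0.08 SE, limma adjusted p = 0.00167), and ♂M-3 was below ZM-1 by 1.36-fold (−0.45, adjusted p = 0.00496). The difference of 0.19 between ♂M-1 and ZM-1 did not pass (adjusted p = 0.198, 95% confidence interval 0.02 to 0.36).

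Chpf and Tmem198 are transcribed away from each other, and in RefSeq their starts are separated by 60 bases. That shared stretch (GRCm38.p6, chr1:75479472-75479531, plus strand, 5′ to 3′) is printed because 1 of the pair passed the test against ♂M-3 and the other did not. Tmem198 starts just after its last base and Chpf, on the other strand, just before its first; its GC box is in capitals.
Chpf to Tmem198: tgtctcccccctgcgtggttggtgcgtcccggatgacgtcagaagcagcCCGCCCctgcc

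Tmem198 measured 38.4 and 40.2 in ♂M-1, 31.6 and 36.8 in ♂M-3, and 39.3 and 48.6 in ZM-1, below the array medians in every array. Both ♂M-3 arrays were the lowest of the 6, and ♂M-1 and ZM-1 overlapped. The log2 difference between ♂M-1 and ♂M-3 was 0.20 (limma adjusted p = 0.397, 95% confidence interval −0.06 to 0.46), and that between ♂M-3 and ZM-1 was −0.35 (adjusted p = 0.0701). The interval of Chpf for ♂M-1 against ♂M-3 was 0.47 to 0.81, and the difference between the 2 genes was not tested. Without ZM-1 replicate 1, Tmem198 passed against ZM-1 (adjusted p = 0.0228).

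Stk11ip, which lies just before Slc4a3, followed the order of Obsl1. It measured 252 and 237 in ♂M-1, 216 and 190 in ZM-1, and 138 and 161 in ♂M-3. All ♂M-3 values lay below all others, and ♂M-1 and ZM-1 did not overlap. ♂M-1 exceeded ♂M-3 by 1.64-fold (log2 difference 0.71 ± 0.10 SE, limma adjusted p = 0.00423). ♂M-3 lay below ZM-1 by 1.36-fold (−0.44, adjusted p = 0.0186), which no longer passed when ZM-1 replicate 1 (adjusted p = 0.0790) or ♂M-3 replicate 1 (0.128) was left out. The difference of 0.27 between ♂M-1 and ZM-1 did not pass (adjusted p = 0.184).

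Inha, the gene next to Obsl1 on the opposite strand, measured 78.1 and 71.1 in ♂M-1, 69.8 and 60.2 in ZM-1, and 55.6 and 50.3 in ♂M-3. The 3 lines were again in the order of Obsl1 without overlap, though ♂M-1 and ZM-1 were separated by little. Inha lay near the array medians of 67.2 to 71.3, and below its own array's median in each ♂M-3 and ZM-1 array. Whether this low intensity affected its differences was not tested. ♂M-1 exceeded ♂M-3 by 1.4-fold (log2 difference 0.49 ± 0.10 SE, limma adjusted p = 0.0205). Inha no longer passed when ♂M-1 replicate 1 (adjusted p = 0.123) or 2 (0.0859) or ♂M-3 replicate 1 (0.0625) or 2 (0.150) was left out. ♂M-3 against ZM-1 gave −0.29 (adjusted p = 0.0787, or 0.0492 without ZM-1 replicate 2), and ♂M-1 against ZM-1 gave 0.20 (adjusted p = 0.306).

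The muscle genes at the other end of the set took a different order, with ZM-1 highest. The means of Tmem198, beside Obsl1, took that order too, but its ♂M-1 and ZM-1 arrays overlapped. Des measured 717 and 802 in ZM-1, 556 and 539 in ♂M-1, and 389 and 391 in ♂M-3. No arrays of different lines overlapped. ♂M-3 lay below ZM-1 by 1.94-fold (log2 difference −0.96 ± 0.08 SE, limma adjusted p = 1.37e-04), a call kept in each of the 16 alternatives. ♂M-1 lay below ZM-1 by 1.38-fold (−0.47, adjusted p = 0.0154), which did not pass without ♂M-1 replicate 1 (adjusted p = 0.0739) or 2 (0.118) or ZM-1 replicate 2 (0.0622). ♂M-1 exceeded ♂M-3 by 1.4-fold (0.49, adjusted p = 0.00889), which did not pass without ♂M-1 replicate 1 (0.0589) or 2 (0.0674) or ♂M-3 replicate 1 (0.0677) or 2 (0.0646).

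Speg, next to Des, measured 83.8 and 81.1 in ZM-1, 75.1 and 76.3 in ♂M-1, and 68.3 and 70.4 in ♂M-3. The lines did not overlap and stood in the order of Des, but they spanned little. ♂M-3 lay below ZM-1 by 1.19-fold (log2 difference −0.25) and below ♂M-1 by 1.09-fold (0.13 for ♂M-1 against ♂M-3). Speg stayed within a narrow range across lines in which Obsl1 ranged over 3.21-fold. Its values lay near the array medians of 67.2 to 71.3, and no background level was stated. Whether this low intensity narrowed its range was not tested.

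Gmppa and Asic4, between Speg and Chpf, passed in no comparison. Gmppa measured 596 and 535 in ♂M-1, 590.0 and 617 in ♂M-3, and 587 and 526 in ZM-1. The ♂M-1 arrays overlapped with those of both other lines, while ♂M-3 and ZM-1 were just apart. Its log2 difference between ♂M-1 and ♂M-3 was −0.10 (limma adjusted p = 0.646, 95% confidence interval −0.30 to 0.11). Asic4 measured 62.3 and 57.9 in ♂M-1, 73.6 and 57.7 in ♂M-3, and 62.2 and 62.0 in ZM-1, with overlap between all lines. Like Speg and Inha, Asic4 lay near the array medians. Its log2 difference between ♂M-1 and ♂M-3 was −0.12 (adjusted p = 0.650, interval −0.37 to 0.13).

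**Figure D2:**
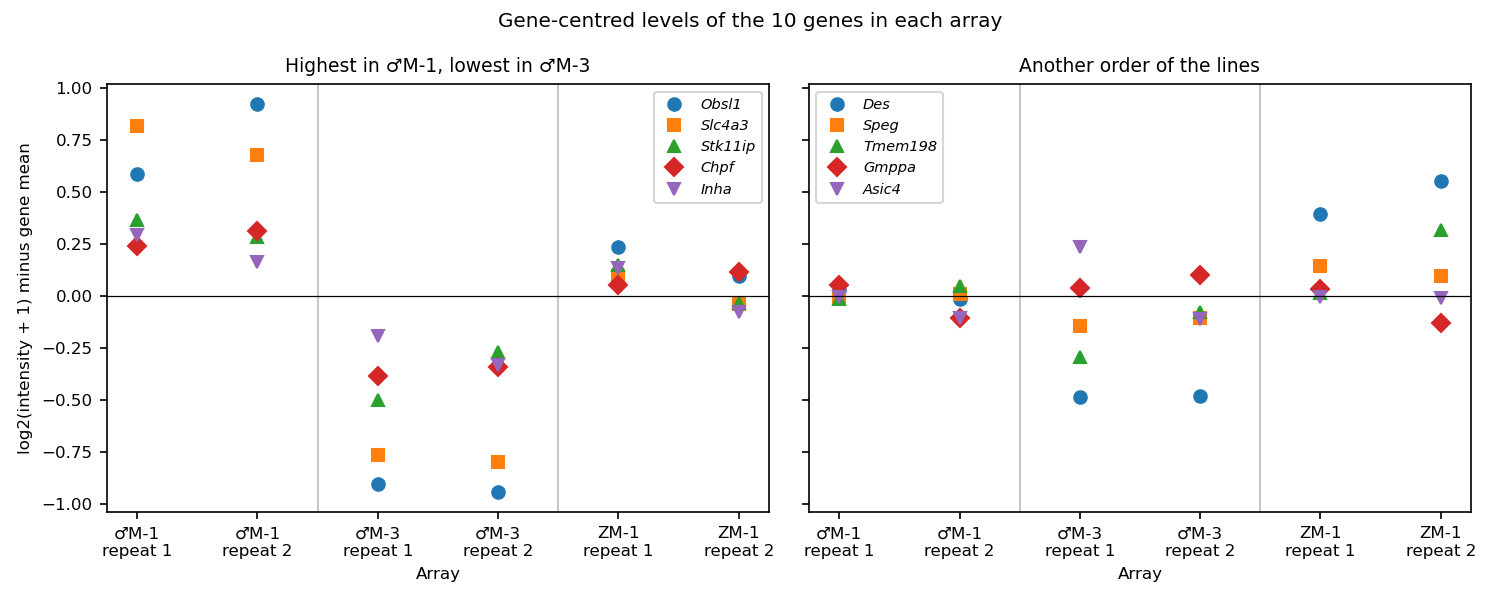
Level of each of the 10 genes in each array, as log2(intensity + 1) minus the gene's mean over the 6 arrays. The left panel holds the 5 genes highest in ♂M-1 and lowest in ♂M-3, grouped after their values were seen. The right panel holds the other 5, among which Des, Speg and Tmem198 have their highest mean in ZM-1.

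Between ♂M-3 and ZM-1, 3 of the 7 positional neighbours were lower in ♂M-3 (Des, Chpf and Stk11ip) and 0 were higher (limma). Over all genes, 15.9% were called in this comparison, 7.2% as lower in ♂M-3 and 8.66% as higher. The median log2 difference of the 7 was −0.35, against 0.00213 over all genes. Between ♂M-1 and ZM-1, 1 of 7 was called, Des, lower in ♂M-1, where 4.41% of all genes were called, 2.53% as lower in ♂M-1 and 1.89% as higher. The median of the 7 was 0.02 there, against −0.00824 over all genes. The 3 comparisons share arrays, since each line enters 2 of them, so a low ♂M-3 level counts in 2 comparisons at once.

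The genes flanking the neighbourhood were read in the same fit. Of the 10 measured genes before Des, 1 was higher and 1 lower in ♂M-1 than in ♂M-3 (limma), and of the 10 after Slc4a3 also 1 and 1. Before Des, there was at most 1 call without any single array. Over the 1122 measured genes of chromosome 1, 9% were called in this comparison. Against ZM-1, 2 genes before Des were higher and 1 lower in ♂M-3, and 1 and 1 after Slc4a3 (limma). There, 17.6% of the chromosome 1 genes were called. Between ♂M-1 and ZM-1, 0 genes before Des and 1 after Slc4a3 were called, against 6.42% of the chromosome 1 genes. The genes nearest to Des, Dnpep and Resp18, were not called in any comparison. Dnpep, an aspartyl aminopeptidase, measured 514 and 482 in ♂M-1, 470.0 and 495 in ♂M-3, and 529 and 512 in ZM-1.

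Past Slc4a3, the next measured gene is Epha4, an ephrin receptor, and it ran the other way. It measured 394 and 409 in ♂M-1, 672 and 655 in ♂M-3, and 285 and 279 in ZM-1. ♂M-3 was highest and ZM-1 lowest, with no overlap. ♂M-3 exceeded ZM-1 by 2.35-fold (log2 difference 1.23, limma adjusted p = 2.44e-05) and ♂M-1 by 1.65-fold (−0.72 for ♂M-1 against ♂M-3, adjusted p = 8.31e-04). ♂M-1 exceeded ZM-1 by 1.42-fold (adjusted p = 0.00598, or 0.0675 without ♂M-1 replicate 2). Pax3, the measured gene after Epha4 and a transcription factor of muscle and neural crest precursors, was not called in any comparison.

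On the other side, Ptprn, a phosphatase-like protein of secretory granules separated from Des by Resp18 and Dnpep, was lower in ♂M-3. It measured 138 and 147 in ♂M-1, 92.9 and 89.0 in ♂M-3, and 184 and 155 in ZM-1, in the order of Des. The log2 difference was −0.89 for ♂M-3 against ZM-1 (limma adjusted p = 4.88e-04) and 0.64 for ♂M-1 against ♂M-3 (adjusted p = 0.00517, or 0.0674 without ♂M-1 replicate 2). Ap1s3, a subunit of a clathrin adaptor, measured 72.7 and 78.4 in ♂M-3 against 121 and 119 in ♂M-1 and 129 and 114 in ZM-1 (log2 difference 0.66 for ♂M-1 against ♂M-3, adjusted p = 0.00276), and −0.67 separated ♂M-3 from ZM-1 (adjusted p = 0.00124). Tuba4a, an alpha-tubulin, was higher in ♂M-3 than in ZM-1 (0.33, adjusted p = 0.0155) and than in ♂M-1 (−0.29 for ♂M-1 against ♂M-3, adjusted p = 0.0488). The call against ♂M-1 was lost with quantile normalization (limma adjusted p = 0.0591), median centring (0.0517) or the replicate number as a block (0.0796). It was also lost when any single array of the series was left out. Both Tuba4a calls were lost without any single ♂M-3 array (adjusted p between 0.0802 and 0.234). Ankzf1, which acts in ribosome quality control, gave 0.36 for ♂M-3 against ZM-1 (adjusted p = 0.0482), a call that ended without any single array of those lines (adjusted p from 0.0558 to 0.276).

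**Figure D3:**
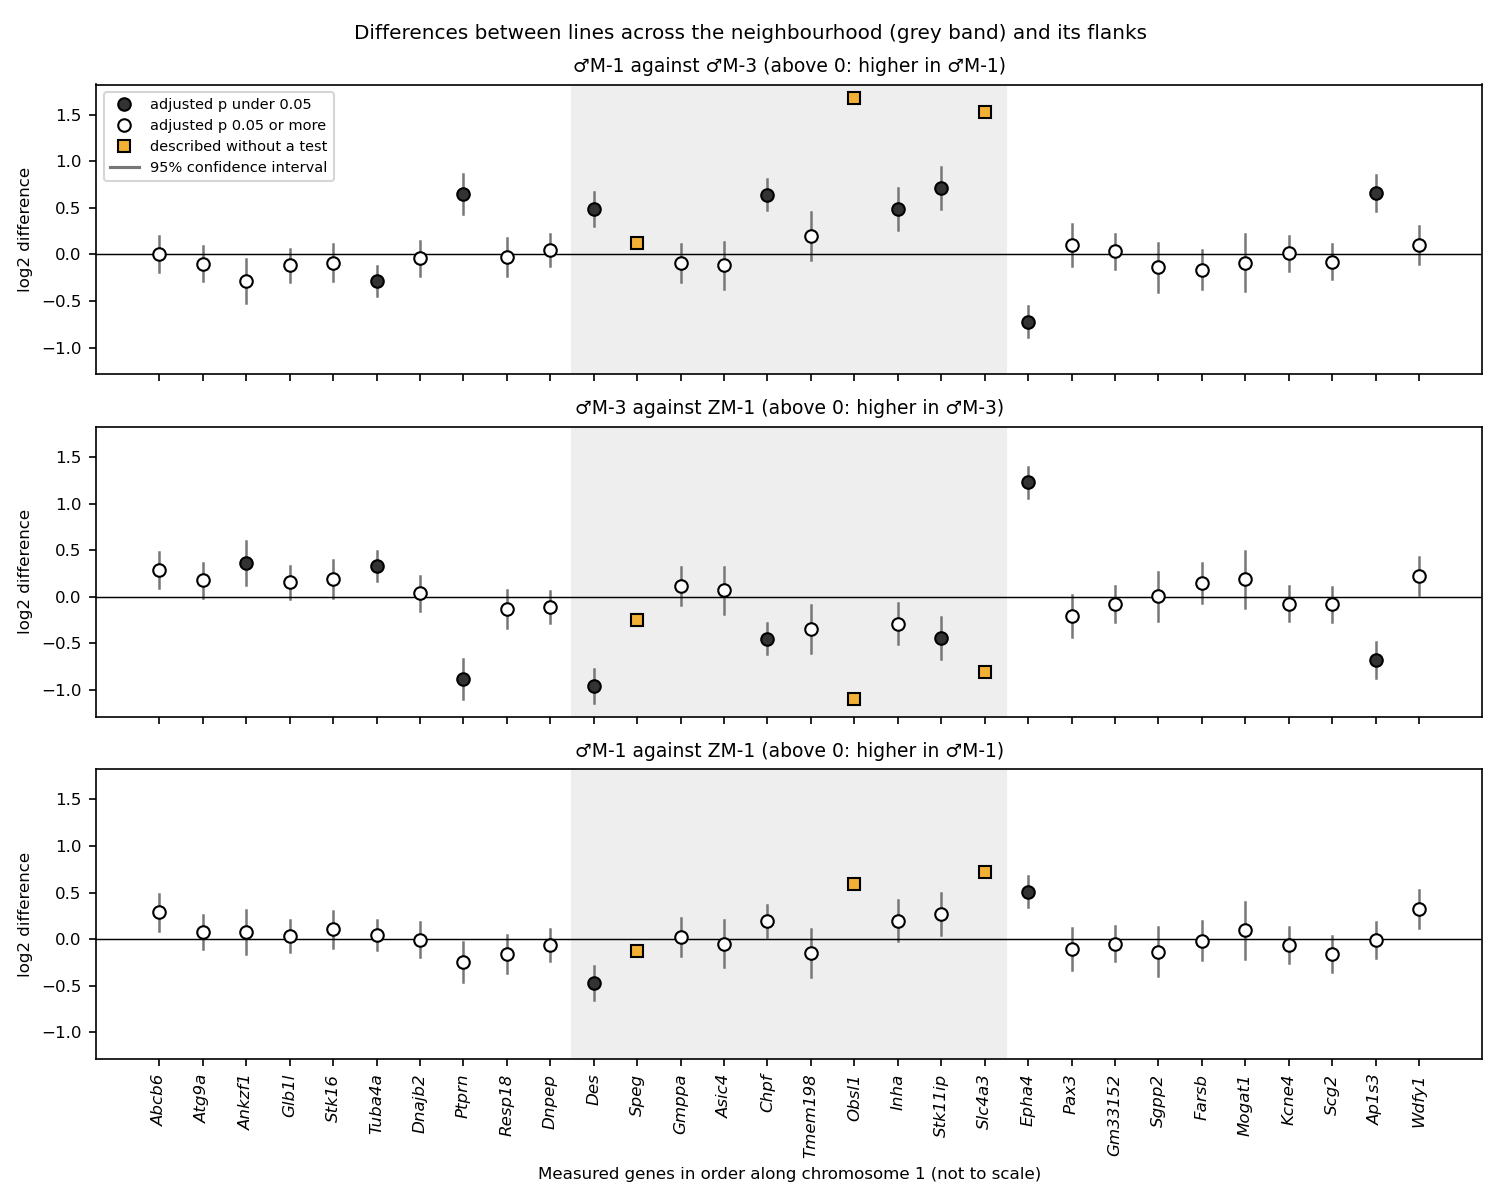
Log2 differences for the 10 genes (grey band) and 10 measured genes on each side, in their order along chromosome 1 and not to scale. Filled points passed the test and open points did not. Vertical lines are 95% confidence intervals, and squares mark Obsl1, Slc4a3 and Speg, described without a test. In ♂M-1 against ♂M-3, Chpf, Inha and Stk11ip lie above 0 beside Obsl1 and Slc4a3. Of the flanking genes called there, Ptprn and Ap1s3 also lie above 0, and Epha4 and Tuba4a below 0.

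Likeness to Obsl1 and Slc4a3 was measured as the root mean square distance between gene-centred log2 profiles over the 6 arrays, which come from only 3 lines. Obsl1 and Slc4a3 were chosen by their values in these arrays, so their distance to each other, 0.18 and rank 2 of 19937 genes either way, describes that choice and supports nothing. Ranked 1 for both was Fgfbp1, a carrier of fibroblast growth factors on chromosome 5, at 0.16 from Obsl1 and 0.12 from Slc4a3. For ♂M-1, ♂M-3 and ZM-1 its means were 159, 58.3 and 105. Next for Obsl1 came Pmaip1, Ankrd1, P2ry2 and Olig2, and next for Slc4a3 came Pmaip1, Plekhm3, P2ry2 and Adam23. Plekhm3 and Adam23 are also on chromosome 1.

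Among the neighbours, Stk11ip ranked 92 for Obsl1 and 55 for Slc4a3, Chpf 103 and 91, and Inha 326 and 199. Des ranked 515 and 1138, Tmem198 1787 and 2423, and Speg 2436 and 2762. Gmppa ranked 14708 and 13397 and Asic4 15265 and 14861. The distances of Stk11ip, Chpf and Inha were 0.43, 0.44 and 0.52 from Obsl1, and 0.34, 0.37 and 0.43 from Slc4a3. Fgfbp1 lay at 0.16 and 0.12 and Speg at 0.64 and 0.58, so these ranks do not stand for close profiles. Speg itself was nearly flat, and the genes closest to it (Itm2b, Kpna2, Lsg1, Mir19b-2 and Mgat4d, at distances of 0.01 to 0.02) were nearly flat as well.

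The partners of these genes elsewhere in the genome were counted from lists of their pathways. For Obsl1, the 6 partners of its ubiquitin ligase assembly held 1 gene higher in ♂M-3 than in ZM-1, Ccdc8 (limma). That is 16.7% of the list, near the 15.9% of all genes called there. None was called between ♂M-1 and ♂M-3 (limma, with 2 at an unadjusted p under 0.05, both lower in ♂M-1), where 6.54% of all genes were. Ccdc8 measured 75.2 and 68.3 in ♂M-1, 92.9 and 82.4 in ♂M-3, and 55.2 and 67.8 in ZM-1 (log2 difference 0.51 for ♂M-3 against ZM-1, adjusted p = 0.0161). Ccdc8 no longer passed when ZM-1 replicate 1 (adjusted p = 0.0648) or ♂M-3 replicate 1 (0.108) was left out. Of 8 other bicarbonate transporters related to Slc4a3, 1 was higher and 1 lower in ♂M-3 than in ZM-1 (limma), 25% of the list against 15.9% of all genes. Between ♂M-1 and ♂M-3, 0 were called (limma, with 4 at an unadjusted p under 0.05), against 6.54% of all genes. Without either ZM-1 array Slc4a5 passed there, lower in ♂M-1 (adjusted p = 0.0419). Slc4a8, the lower one, measured 180 and 163 in ♂M-1, 143 and 132 in ♂M-3, and 192 and 194 in ZM-1 (−0.49, adjusted p = 0.00513, or 0.0503 without ♂M-3 replicate 2).

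For Inha, 12 inhibin and activin pathway genes held 3 that were higher in ♂M-1 than in ♂M-3 and 0 lower (limma), a share of 25% against 6.54% over all genes. Without ♂M-1 replicate 1 or ♂M-3 replicate 1 the count was 1, since Fst and Fstl3 did not pass, and without ♂M-1 replicate 2 it was 2. The list's median log2 difference was 0.13, against −0.02 for all genes. Inhba, the beta A subunit that forms activin A and pairs with the Inha product in inhibin A, measured 722 and 806 in ♂M-1, 361 and 392 in ♂M-3, and 623 and 519 in ZM-1. The 3 lines did not overlap and stood in the order of Inha. ♂M-1 exceeded ♂M-3 by 2.03-fold (log2 difference 1.02, adjusted p = 9.03e-04), and ♂M-3 lay below ZM-1 by −0.59 (adjusted p = 0.00632, or 0.0520 without ♂M-3 replicate 1). The activin antagonist Fstl3 measured 218 and 201 in ♂M-1, 133 and 151 in ♂M-3, and 221 and 226 in ZM-1, and was lower in ♂M-3 than in ZM-1 (−0.65, adjusted p = 0.00168). Against ZM-1, 2 of the 12 genes were higher and 4 lower in ♂M-3, where 15.9% of all genes were called, and the 6 calls became 1 without ♂M-3 replicate 1 and 2 without ZM-1 replicate 1. In ♂M-1, 0 were called against ZM-1 (limma; 3 at an unadjusted p under 0.05), or 1 without ZM-1 replicate 1.

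For Des and Speg, 28 sarcomere and intermediate filament genes held 8 lower and 1 higher in ♂M-3 than in ZM-1, 4 below ZM-1 and 0 above it in ♂M-1, and 3 higher and 0 lower in ♂M-1 than in ♂M-3 (limma). Those were 32.1%, 14.3% and 10.7% of the list, against 15.9%, 4.41% and 6.54% of all genes. With 1 array left out the lower genes numbered 2 (without ♂M-3 replicate 2) to 8 in ♂M-3, with 4 without ZM-1 replicate 2. In ♂M-1 they numbered 1 (without ♂M-1 replicate 1) to 4, with 2 without ♂M-1 replicate 2 or ZM-1 replicate 2. The 3 higher in ♂M-1 than in ♂M-3 fell to 0 without ♂M-1 replicate 2 or either ♂M-3 array. Their medians were −0.17, −0.06 and 0.09, against 0.00213, −0.00824 and −0.02 over all genes. Actc1, the cardiac actin, measured 628 and 744 in ZM-1, 243 and 348 in ♂M-1, and 299 and 299 in ♂M-3 (log2 differences from ZM-1 of −1.23 and −1.19, adjusted p = 0.00288 and 0.00128). ♂M-1 and ♂M-3 overlapped for Actc1, unlike for Des. Neb, the thin filament protein nebulin, measured 154 and 173 in ZM-1, 95.8 and 113 in ♂M-1, and 75 and 70.2 in ♂M-3, without overlap and in the order of Des. ♂M-3 lay below ZM-1 for Neb by −1.16 (adjusted p = 1.55e-04).

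For the remaining members, 20 chondroitin sulfate genes, related to Chpf, held 1 higher and 0 lower in ♂M-1 than in ♂M-3, and 1 higher and 2 lower in ♂M-3 than in ZM-1 (limma). These shares, 5% and 15%, were near the 6.54% and 15.9% of all genes. Without any single array of ♂M-1 or ♂M-3 the call between those lines (Chst15) ended, and without either ♂M-3 array or ZM-1 replicate 2, there was 1 call against ZM-1 in place of 3. The 8 listed genes of GDP-mannose and dolichol-mannose metabolism, related to Gmppa, held 1 higher and 1 lower in ♂M-1 than in ♂M-3. In ♂M-3, 2 were higher and 3, among them Gmds, lower than in ZM-1. These shares were 25% and 62.5%, against the same 6.54% and 15.9%. Between ♂M-1 and ♂M-3 there was at most 1 call without any single array of those lines. The 5 calls against ZM-1 became 0 without ♂M-3 replicate 1, 1 without ♂M-3 replicate 2, 2 without ZM-1 replicate 2 and 3 without ZM-1 replicate 1. Of 12 genes of the LKB1 complex and AMPK, related to Stk11ip, 0 were called between ♂M-1 and ♂M-3 (2 at an unadjusted p under 0.05), and 1, Prkaa2, was higher in ♂M-3 than in ZM-1. That is 8.33% of the list, below the 15.9% of all genes, and Prkaa2 did not pass without ZM-1 replicate 2 (adjusted p = 0.0880) or ♂M-3 replicate 1 (0.0859) or 2 (0.0963). None of 4 other acid-sensing channels was called in any comparison by limma, and 0 reached an unadjusted p under 0.05.

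Markers of other cell types differed between the lines. Of 8 fibroblast markers, 8 were lower in ♂M-3 than in ZM-1, 7 were higher in ♂M-1 than in ♂M-3, and in ♂M-1 2 were lower than in ZM-1 (limma), where 15.9%, 6.54% and 4.41% of all genes were called. Their median log2 differences were −0.54, 0.64 and −0.08, beside −0.35, 0.49 and 0.02 for the 7 positional neighbours. With 1 array left out the counts were 6 to 8, 5 to 7 and 1 to 2, the last 1 without either ♂M-1 array or ZM-1 replicate 1. Their summed intensity ranged from 2789 to 2878 in ♂M-1, 1771 to 1864 in ♂M-3 and 3107 to 3213 in ZM-1, and no marker was at 0. The higher sum in ZM-1 than in ♂M-1 rested on Dcn, with means of 571 and 214. Without Dcn, left out after its values were seen, the other 7 summed to 2598 to 2642 in ♂M-1, 2561 to 2616 in ZM-1 and 1659 to 1767 in ♂M-3, so that ♂M-1 and ZM-1 overlapped. Col1a1, Col1a2 and Thy1 had their highest mean in ♂M-1, as Obsl1, Slc4a3, Chpf, Inha and Stk11ip did, though Thy1 overlapped between ♂M-1 and ZM-1. Col3a1, Dcn, Pdgfra, Prrx1 and Twist2 had theirs in ZM-1. The part of the fibroblast markers in the levels of the 10 genes was not tested. In bulk samples, fewer cells of a type and less RNA per cell cannot be told apart.

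Between ♂M-1 and ♂M-3, 0 of 10 muscle markers were called (limma, with 0 at an unadjusted p under 0.05), where 6.54% of all genes were. Against ZM-1, 3 of the 10 were lower in ♂M-1 and 4 in ♂M-3 (limma), where 2.53% and 7.2% of all genes were called as lower. Leaving out 1 array gave 1 (without ♂M-1 replicate 1 or ZM-1 replicate 2) to 3 in ♂M-1 and 2 (without ♂M-3 replicate 2) to 4 in ♂M-3. Their sum ranged from 949 to 1115 in ♂M-1, 970 to 1022 in ♂M-3 and 1458 to 1683 in ZM-1, so ♂M-1 and ♂M-3 overlapped. None was at 0, and their part in the Des level was not tested. Of 4 measured markers of Sertoli or granulosa cells, which secrete inhibin, and of 5 neuronal markers, 0 were called in any comparison (limma; at most 1 and 2 at an unadjusted p under 0.05). Without ZM-1 replicate 1, 1 of the Sertoli or granulosa markers fell below ZM-1 in ♂M-1.

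**Figure D4:**
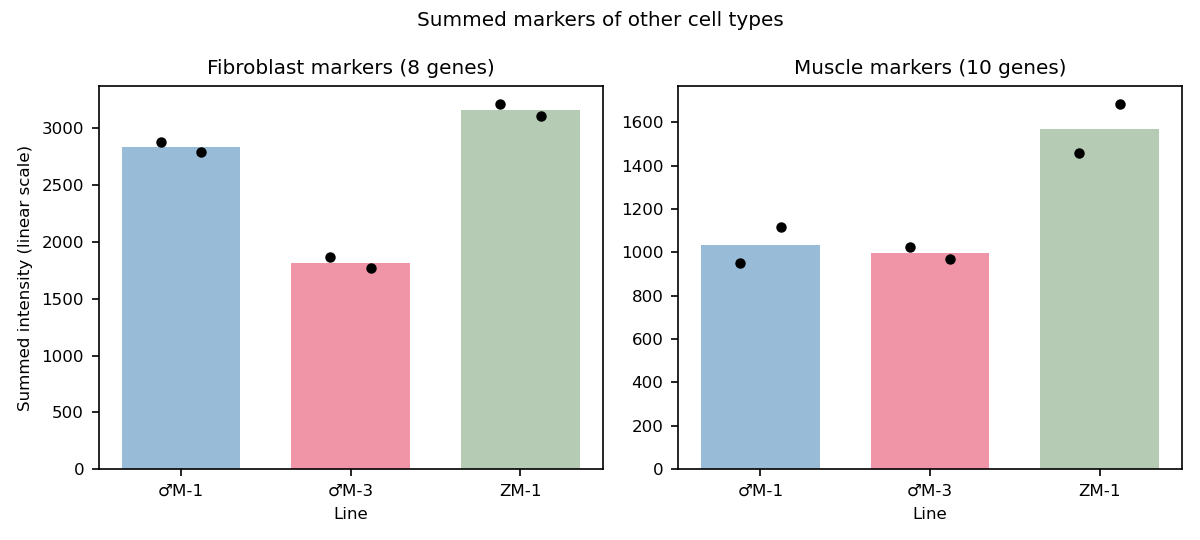
Summed intensity (linear scale, axis from 0) of 8 fibroblast markers and 10 muscle markers by line; bars are the mean of 2 arrays and points the arrays. The fibroblast sum is lowest in ♂M-3 and highest in ZM-1, where Dcn makes the difference from ♂M-1. The muscle sum is highest in ZM-1, much of it through Actc1, with ♂M-1 and ♂M-3 overlapping.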

How the data were processed

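RNA of 3 lines, 2 repeats each, was measured on a whole-transcript array after Trizol extraction and biotin labelling. The authors deposited intensity values on a linear scale for 35556 probe sets; per the submitters' processing notes the software was GCOS 1.4, and background correction, normalization and genome build were not given in the sources used here. A platform table gave 1 symbol to 21789 probe sets, several to 1621 and none to 12146. Per gene, the single-symbol probe set with the highest mean was kept (19938 genes). All 10 members had one. Values were taken as log2(intensity + 1), and a mean per line was fitted to the 6 arrays together (limma 3.58.1, R 4.3.3; 3 residual and 6.01 prior degrees of freedom; two-sided; Benjamini-Hochberg over all genes; threshold 0.05). The fit was tested on simulated data. Depth does not apply to arrays. No further normalization was applied.

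The members and lists were chosen with earlier results of these data known. The rule named all members, the 2 nearest measured genes and all called genes among 10 on each side, the 5 most like genes, and up to 4 called genes of 8 lists; 5 marker lists were read beside them. Gene order came from RefSeq GRCm38.p6. Promoter windows were matched by symbol for 9 of 10 members, all but Asic4. Alternatives covered the pseudocount, filters, normalization, probe sets, compared lines, the replicate block and each array left out. The counts of list, marker and flanking genes with each array left out, and the fibroblast sum without Dcn, were added after seeing the data.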

Additional observations from a re-analysis of the deposited data

How the results depend on the processing

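With all 35556 probe sets tested one by one, 442 were called between ♂M-1 and ♂M-3, 2027 between ♂M-3 and ZM-1 and 275 between ♂M-1 and ZM-1, against 1303, 3162 and 880 genes in the tests reported above, and the positional neighbours called fell from 4 to 1, from 3 to 2 and from 1 to 0 (limma; 4, 5 and 2 at an unadjusted p under 0.05). Leaving out 1 array gave 357 to 1495, 1302 to 2750 and 234 to 631 genes, and 2 to 4, 2 to 4 and 0 to 1 positional neighbours in the same order of comparisons. The gene counts moved over 1.5 times without any single array of ♂M-1 or ♂M-3 in the first comparison, any of ♂M-3 or ZM-1 replicate 2 (2077) in the second, and any of ♂M-1 or ZM-1 replicate 2 (576) in the third. Median centring changed the share of calls that were higher in the first line from 42.7% to 62.0% in ♂M-1 against ZM-1 and from 54.6% to 70.9% in ♂M-3 against ZM-1, and left the counts of positional neighbours at 4, 3 and 1. The numbers of the repeats did not pair the arrays: deviations of same-numbered repeats correlated at −0.03, 0.07 and −0.10 across genes. With the replicate number as a block, 5 positional neighbours in place of 3 were lower in ♂M-3 than in ZM-1, with Tmem198 and Inha added, and 4 and 1 were called in the other comparisons. Obsl1 kept its directions, at 1.47 to 1.85 for ♂M-1 against ♂M-3, and so did Slc4a3, at 0.92 to 1.60; Chpf passed against ♂M-3 in each of the 16 alternatives run. The uncalled differences of Asic4 in each comparison, and of Gmppa and Tmem198 between ♂M-1 and ZM-1, changed sign under some settings. Only 4 positional neighbours lay above the 50th percentile of mean intensity, and 2 arrays a line limit the precision.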
